A study of Mus musculus with 8 samples.

Results

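Untreated mouse embryonic stem cells labelled p53-/- were compared with untreated cells labelled p53+/+ in RNA that had not been immunoprecipitated, called input. The members were 2 of the 8 libraries, chosen by their genotype, treatment and library type, with 1 library a side. Embryonic stem cells are pluripotent cells of the early embryo. Both genotypes were on a mix of the C57BL/6 and 129Sv strains, were at fewer than 20 passages by their labels, and grew in medium with serum and leukemia inhibitory factor, which holds mouse stem cells in self-renewal. The growth protocol names no feeder cells, and the labels give neither the targeted Trp53 allele, nor the clone, nor whether the genotypes derive from related lines. A p53-/- line that differs from its p53+/+ partner in clone or culture history differs in more than p53, and with 1 library a side the genotype and the line cannot be told apart. The other 6 libraries were the inputs of both genotypes after 0.5 uM of Adriamycin, a drug that breaks DNA, for 8 hours, and 4 libraries of RNA recovered with an antibody to hnRNP L (RIP), from both genotypes with and without the drug.

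Levels are FPKM, fragments per kilobase of transcript, normalised to the fragments mapped in the library, as deposited and summed per gene. Differences are p53-/- minus p53+/+ on the scale of log2(scaled FPKM + 1), so that a value of 1 is a 2-fold change for a well-expressed gene and a larger one for a low gene. The scaling factors of the untreated inputs were 1.32 and 1.33, so deposited levels of the pair can be read directly against each other. The untreated inputs held 6.25 and 6.80 Gb of bases on annotated transcripts. The deposited bounds allow the number of fragments behind an estimate to be approximated. No p-value and no error between cultures can be given for 1 library against 1. The bounds printed below are those in the deposited tables and cover the error of counting and of assigning fragments, not the spread between cultures.

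The tumour suppressor p53 is a transcription factor that damaged DNA stabilises. It activates genes for cell cycle arrest, apoptosis and DNA repair, and genes for its own inhibitors, and in unstressed cells a low level of the protein keeps some of these genes partly on. Interstitial matrix, the network of fibrillar collagens, glycoproteins and proteoglycans between mesenchymal cells, is made mainly by fibroblasts and related cells and little by naive stem cells. Naive stem cells are held by a core of transcription factors (Pou5f1, Sox2, Nanog), and small numbers of cells in such cultures drift toward primitive endoderm, toward the primed state of the later epiblast, or toward a state that resembles the 2-cell embryo.

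The targeted gene was still measured in the p53-/- library. Trp53 (chr11:69393861-69405375 on mm9) was at 236 FPKM in p53+/+ against 140.3 FPKM in p53-/-, and at 173 and 121 FPKM with Adriamycin, a ratio of 0.59 between the untreated inputs. Its 2 transcript records differed. The record of 1772 bases was at 193 and 99.0 FPKM, and that of 1868 bases at 43.4 and 41.3 FPKM. Since the labels do not say which part of the gene was removed, a level over the whole transcript does not test the label. The response of p53's targets bears on it more directly. Mdm2, the ubiquitin ligase that degrades p53, went from 25.4 to 221 FPKM with Adriamycin in p53+/+ and from 14.8 to 16.5 FPKM in p53-/-, a contrast that shares its untreated libraries with the genotype comparison. Both libraries held the defining stem cell genes at high levels: Pou5f1 was at 1131 FPKM in p53+/+ against 755 FPKM in p53-/-, Sox2 at 170.0 FPKM in p53+/+ against 124 FPKM in p53-/-, and Nanog at 164 FPKM in p53+/+ against 151 FPKM in p53-/-. The Y-linked gene Eif2s3y was at 44.2 FPKM in p53+/+ against 50.9 FPKM in p53-/-, and Xist, the RNA that silences an X chromosome, at 0.453 FPKM in p53+/+ against 0.334 FPKM in p53-/-. Hnrnpl, whose protein the antibody recovers, was at 259.9 FPKM in p53+/+ against 173 FPKM in p53-/-, a difference of -0.59.

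Of 11832 genes that averaged at least 1 FPKM over the 8 libraries, 381 (3.22%) were higher in p53-/- by 1 or more and 289 (2.44%) were lower, with a median over all genes of -0.02. The upper tail was longer: 73 genes were higher by 2 or more against 28 lower, and 27 higher by 3 or more against 6 lower. Of the 381, 151 were under 1 FPKM in p53+/+, 147 at 1 to 10 FPKM and 83 at 10 FPKM or more. Of the 289, 54 were under 1 FPKM in p53-/-, 172 at 1 to 10 FPKM and 63 at 10 FPKM or more. Passing the filter on low values was itself tied to the difference for some: 127 of the 381 had a mean under 1 FPKM in the 4 p53+/+ libraries and passed through the p53-/- libraries, and 43 of the 289 passed through the p53+/+ libraries. The span of 84 of the higher and 76 of the lower genes overlaps another gene on mm9, where the counting of shared reads leaves values uncertain.

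The same direction could be read in 3 other genotype pairs that share no library with the untreated inputs, although the labels do not say whether a RIP library and its input came from 1 culture. Of the 381 higher genes, 265 (69.6%) were higher by 1 or more in the Adriamycin inputs, where 7.77% of all genes were, 260 (68.2%) in the untreated RIP pair (3.99% of all genes) and 224 (58.8%) in the Adriamycin RIP pair (8.85%). Of the 289 lower genes, 186 (64.4%) were lower by 1 or more in the Adriamycin inputs (10.8% of all genes), 197 (68.2%) in the untreated RIP pair (5.38%) and 186 (64.4%) in the Adriamycin RIP pair (14.3%). All 4 pairs were past 1 in the same direction for 172 genes higher in p53-/- (1.45% of those tested) and for 122 lower (1.03%). Between 2 and 7 of the higher genes, and between 2 and 4 of the lower genes, were past 1 the opposite way in any 1 of the 3 other pairs.

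The 15 genes with the largest differences in each direction, among those at 5 scaled FPKM or more in the higher untreated input and past 1 the same way in both input pairs, were of different kinds on the 2 sides. The higher side included Mgp, Bgn, Col1a1, S100a4, Col1a2, Thbs1, Fbln2, Dppa3, Serpinf1, Igfbp7, Tnc, Xlr5b, Tagln and Acta2, with differences from 3.29 to 6.28, and 9 of these 15 belonged to the interstitial matrix lists. The lower side was led by Srgn, Spink1, Psrc1, Lgals2, Laptm5, 1700007K13Rik, Dab2, Cox6b2, Eng, Zscan4a, Prmt8, Mymx, Phlda3, Adam23 and Inhbb, with differences from -3.63 to -2.20. Among these 15, Psrc1 and Phlda3 were on the lists of p53 targets and Srgn and Dab2 on that of primitive endoderm.

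**Figure D1:**
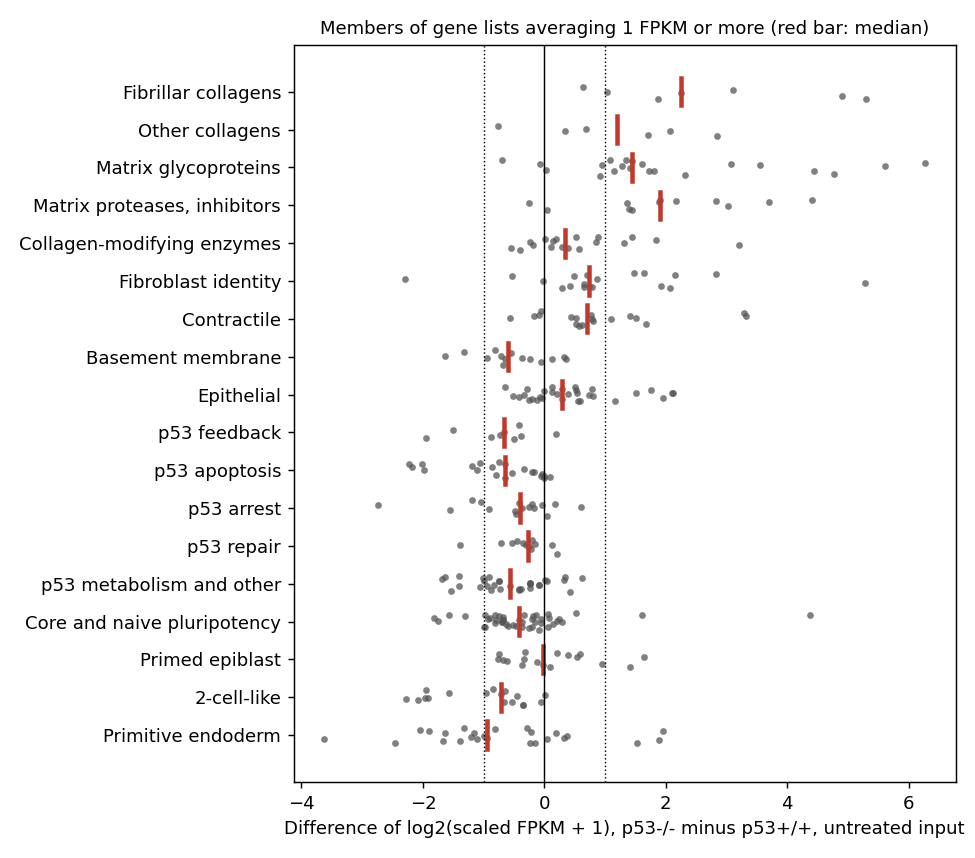
Each grey point is 1 gene of a list that averaged at least 1 FPKM, placed on the horizontal axis by its difference of log2(scaled FPKM + 1), p53-/- minus p53+/+, in untreated input. Red bars are list medians and dotted lines mark a difference of 1 either way, and interstitial matrix lists lie to the right (fibrillar collagens median 2.26, or 1.03 with no filter) while p53 target lists, 2-cell-like genes and primitive endoderm genes lie to the left (medians from -0.95 to -0.27).

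Interstitial matrix genes were higher in the p53-/- library, many of them from under 1 FPKM in p53+/+. Of 95 genes on 5 lists, 94 matched a record and 84 of these had a higher scaled level in p53-/-, including 9 listed at 0 in p53+/+. The matching share of all genes without a filter was not computed. The 64 that passed the filter on low values had a median of 1.37, 39 of them higher by 1 or more and 0 lower, beside 3.22% higher and a median of -0.02 over all genes. Of the 64, 56 were above 0, beside 47.8% of all genes tested. These counts cannot stand for the lists as a whole, because 20 of the 64 passed the filter through the p53-/- libraries. The other pairs were less one-sided. In the Adriamycin inputs 33 of the 64 were higher and 6 lower by 1 or more (7.77% and 10.8% of all genes), with a median of 1.12. In untreated RIP 32 were higher and 2 lower (3.99% and 5.38%), with a median of 0.99. In Adriamycin RIP 22 were higher and 8 lower (8.85% and 14.3%), with a median of 0.50. The summed level of the matched genes was 0.116% of the library's summed FPKM in p53+/+ and 0.33% in p53-/-. With Adriamycin it was 0.136% and 0.361%. The untreated sums were 760 FPKM in p53+/+ and 2135 FPKM in p53-/-. A large part of both is 1 gene, Spp1, which is also on the naive stem cell list and is given below. These shares therefore do not show a rise spread evenly over the lists.

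Among collagens that form fibrils, 6 of 7 tested members were higher by 1 or more (3.22% of all genes), with a median of 2.26. Without the filter on low values 6 of 11 were, with a median of 1.03, and with a pseudocount of 5 FPKM in place of 1 the median was 0.88. Col1a1 and Col1a2 encode the chains of type I collagen, the main fibril of skin, bone and tendon. Col1a1 was at 0.247 FPKM in p53+/+ against 61 FPKM in p53-/-, with deposited bounds of 0.168 to 0.325 and 59.8 to 62.2 FPKM, and at 2.23 and 65.6 FPKM with Adriamycin. Col1a2 was at 0.0562 FPKM in p53+/+ against 40.3 FPKM in p53-/-, and at 0.0722 and 43.9 FPKM with Adriamycin. The 2 p53-/- inputs held both chains at similar levels and the 2 p53+/+ inputs were far below them, with about 40 fragments of Col1a1 and 10 of Col1a2 behind the untreated p53+/+ values. Differences were 5.30 for Col1a1 and 4.91 for Col1a2 in the untreated pair.

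Col3a1, which encodes the type III collagen that accompanies type I in soft tissue, was listed at 0 in both p53+/+ inputs and at 10.2 and 10.3 FPKM in the p53-/- inputs. The minor fibrillar genes went the same way at lower levels. Col5a2 was at 0.0477 FPKM in p53+/+ against 5.27 FPKM in p53-/-, Col5a1 at 1.11 FPKM in p53+/+ against 7.66 FPKM in p53-/-, and Col5a3 at 0.515 FPKM in p53+/+ against 2.45 FPKM in p53-/-, all 3 encoding chains of type V collagen, which sets the width of fibrils. Col2a1, the cartilage collagen, was at 0.863 FPKM in p53+/+ against 2.08 FPKM in p53-/- (difference 0.63) and was lower in p53-/- in the Adriamycin inputs (-0.89). Among 6 tested members of the list of other collagens, Col6a1 (0.0367 FPKM in p53+/+ against 8.45 FPKM in p53-/-), Col6a2 (0.188 FPKM in p53+/+ against 5.06 FPKM in p53-/-) and Col10a1 (0.0189 FPKM in p53+/+ against 3.08 FPKM in p53-/-) were past 1, whereas Col18a1, a collagen of basement membranes, was at 51.1 FPKM in p53+/+ against 29.7 FPKM in p53-/- (difference -0.77). Of the 13 matched members of that list, 10 were under 1 FPKM in untreated p53+/+ and 4 in untreated p53-/-.

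Among matrix glycoproteins and proteoglycans, 16 of 21 tested members were higher by 1 or more (3.22% of all genes). Of the 31 matched members, 21 were under 1 FPKM in untreated p53+/+ and 7 in untreated p53-/-. Here too the filter on low values can favour members that are high in p53-/-. Mgp, matrix Gla protein, an inhibitor of calcification in cartilage and vessel walls, had the largest difference of the genes named. It was at 0.128 FPKM in p53+/+ against 112 FPKM in p53-/-, with bounds of 0 to 0.31 and 107 to 117 FPKM, and at 0.898 and 137 FPKM with Adriamycin. The p53-/- values lay near each other and the untreated p53+/+ value rested on about 2 fragments. Bgn, biglycan, a small proteoglycan that binds collagen, was at 1.13 FPKM in p53+/+ against 119 FPKM in p53-/- (ratio 105), and at 4.0 and 147 FPKM with Adriamycin.

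Thbs1, thrombospondin 1, an adhesive glycoprotein that also activates TGF-beta, was at 0.149 FPKM in p53+/+ against 39.1 FPKM in p53-/-, and at 0.361 and 37.4 FPKM with Adriamycin. Fbln2, a fibulin of elastic fibres, was at 0.382 FPKM in p53+/+ against 35.9 FPKM in p53-/-, and at 5.54 and 43.1 FPKM with Adriamycin. Tnc, tenascin C, a glycoprotein of embryonic and healing tissue, was at 0.0121 FPKM in p53+/+ against 14.5 FPKM in p53-/-, and at 0.0259 and 14 FPKM with Adriamycin. For all 3 the p53-/- inputs were the high libraries, and for Fbln2 the p53+/+ input with Adriamycin lay well above the untreated p53+/+ input. Igfbp7, a secreted binding protein of growth factors that is outside the lists and overlaps another gene, was at 3.14 FPKM in p53+/+ against 52.2 FPKM in p53-/- (ratio 16.5). Periostin (Postn) was at 0.00943 FPKM in p53+/+ against 5.39 FPKM in p53-/-, and the extracellular matrix protein Ecm1 at 1.74 FPKM in p53+/+ against 24.7 FPKM in p53-/-.

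Not every glycoprotein of the list followed. Fn1, fibronectin, was already abundant in p53+/+ and was at 50.1 FPKM in p53+/+ against 96.4 FPKM in p53-/- (difference 0.92), and Vcan, the proteoglycan versican, was lower, at 2.92 FPKM in p53+/+ against 1.3 FPKM in p53-/- (difference -0.70). Spp1, osteopontin, a secreted phosphoprotein that stem cells also make, was at 239 FPKM in p53+/+ against 739 FPKM in p53-/-, and at 63.7 and 766 FPKM with Adriamycin. It is on the lists of both matrix and naive stem cell genes and counts under both.

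Matrix proteases and their inhibitors had 10 of 12 tested members higher by 1 or more (3.22% of all genes). Of the 19 matched members, 12 were under 1 FPKM in untreated p53+/+ and 3 in untreated p53-/-. The filter on low values can therefore favour members that are high in p53-/-. Serpinf1, a secreted serpin that lacks protease inhibition, was at 0.378 FPKM in p53+/+ against 21 FPKM in p53-/-, and at 8.02 and 26.1 FPKM with Adriamycin. The inhibitors of metalloproteases Timp1 (41.4 FPKM in p53+/+ against 160.5 FPKM in p53-/-), Timp2 (1.34 FPKM in p53+/+ against 20.6 FPKM in p53-/-) and Timp3 (0.626 FPKM in p53+/+ against 7.51 FPKM in p53-/-) were higher together, although Timp1, Timp2 and Timp3 overlap other genes on mm9 and are uncertain to that extent. Stromelysin (Mmp3) was at 0.0171 FPKM in p53+/+ against 8.24 FPKM in p53-/-, and Mmp2, a gelatinase, at 4.11 FPKM in p53+/+ against 13 FPKM in p53-/-. Serpine2, another inhibitor of serine proteases, was at 8.28 FPKM in p53+/+ against 23.5 FPKM in p53-/- untreated but at 120.0 and 29.2 FPKM with Adriamycin, so that its genotype difference was 1.36 without and -1.94 with the drug.

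The enzymes that fold and crosslink collagen showed less: 4 of 18 tested members were higher by 1 or more (3.22% of all genes) and the median was 0.34. Lox, the lysyl oxidase that crosslinks collagen and elastin, was listed at 0 in untreated p53+/+, at 0.0261 FPKM in p53+/+ with Adriamycin, and at 11 and 11.1 FPKM in p53-/-. The related oxidases Loxl3 (0.324 FPKM in p53+/+ against 4.6 FPKM in p53-/-) and Loxl1 (1.52 FPKM in p53+/+ against 5.74 FPKM in p53-/-), both overlapping another gene, and the procollagen protease Bmp1 (1.15 FPKM in p53+/+ against 5.43 FPKM in p53-/-) made up the 4.

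**Figure D2:**
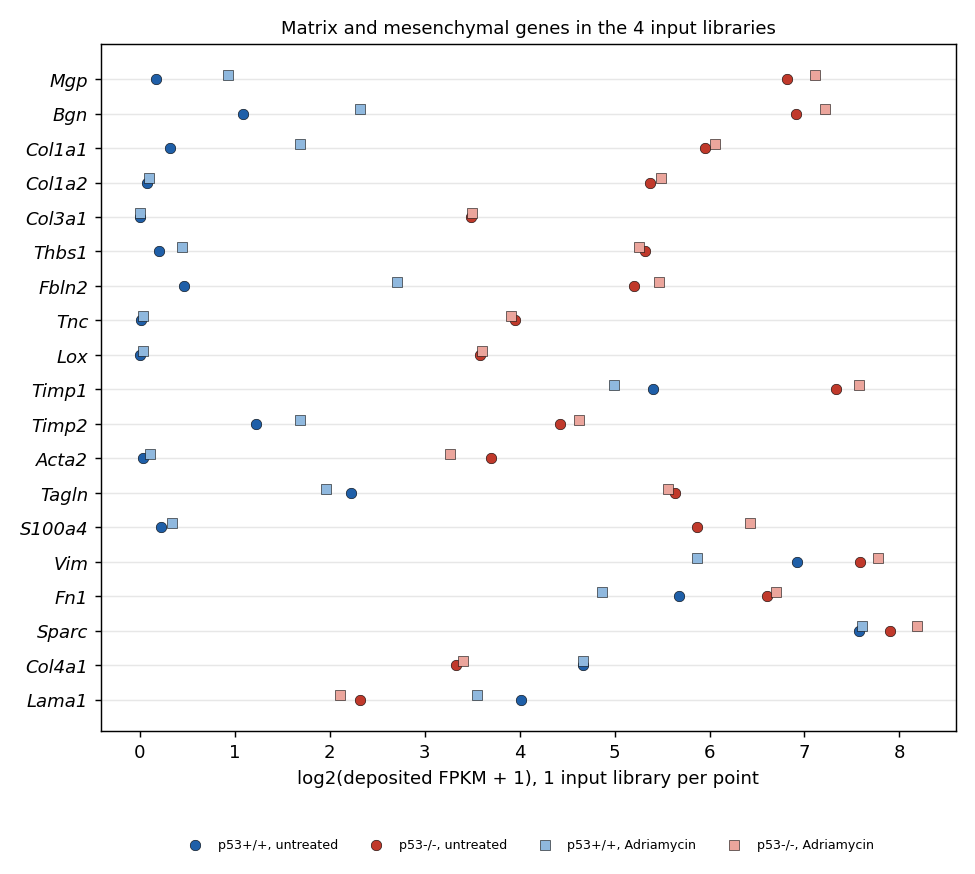
Each row is a matrix or mesenchymal gene and each point 1 input library, on a horizontal axis of log2(deposited FPKM + 1). For genes from Mgp to S100a4 the p53-/- libraries (red, pink) lie to the right of the p53+/+ libraries (blue), as in Col1a1 at 0.247 and 61 FPKM untreated, whereas in Col4a1 and Lama1 they lie to the left.

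Basement membrane, the sheet of laminin and type IV collagen under epithelia that primitive endoderm also secretes, did not share this direction. The median of 14 tested members was -0.60, with 2 past 1 downward (2.44% of all genes) and 0 upward (3.22%). Of these 14, 11 were below 0. Without the filter, 10 of 21 matched members had a higher scaled level in p53-/-. The list's summed level hardly differed, at 0.0625% of the library in untreated p53+/+ and 0.0614% in untreated p53-/-. Lama1, a laminin chain, was at 15.2 FPKM in p53+/+ against 4.01 FPKM in p53-/-, and at 10.7 and 3.31 FPKM with Adriamycin, a difference of -1.64 untreated. Col4a1 was at 24.4 FPKM in p53+/+ against 9.03 FPKM in p53-/- (difference -1.32), and its partner chain Col4a2 at 13 FPKM in p53+/+ against 6.11 FPKM in p53-/- (difference -0.95). Both p53-/- inputs were below both p53+/+ inputs for the 3 genes. The abundant matrix protein Sparc, a collagen-binding protein that stem cells, endoderm and fibroblasts make, was at 189 FPKM in p53+/+ against 238 FPKM in p53-/- (ratio 1.25).

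Markers of fibroblast identity were uneven. Of 34 on the list, 28 were higher in p53-/- and 5 were listed at 0 in p53+/+. The matching share of all genes without a filter was not computed. Among the 19 tested, 16 were above 0, beside 47.8% of all genes tested. The list's summed level was 0.0441% of the library in p53+/+ and 0.121% in p53-/-. Past 1 there were 7 of the 19 tested upward (3.22% of all genes) and 1, Eng, downward (2.44%). Among all 34, 20 were under 1 FPKM in untreated p53+/+ and 10 in untreated p53-/-. The filter on low values can therefore favour members that are high in p53-/-. S100a4, a calcium-binding protein used as a fibroblast marker, was at 0.166 FPKM in p53+/+ against 57.3 FPKM in p53-/-, and at 0.269 and 85.3 FPKM with Adriamycin. Other members past 1 were Anxa1, an annexin (2.57 FPKM in p53+/+ against 26.4 FPKM in p53-/-), the adhesion receptor Cd44 (0.106 FPKM in p53+/+ against 5.09 FPKM in p53-/-), S100a6 (58.7 FPKM in p53+/+ against 254 FPKM in p53-/-), the chemokines Ccl2 (listed at 0 in p53+/+ and at 3.73 FPKM in p53-/-) and Cxcl12 (0.589 FPKM in p53+/+ against 4.66 FPKM in p53-/-), and the lectin Lgals1 (64.8 FPKM in p53+/+ against 184 FPKM in p53-/-).

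The transcription factors and receptors that define mesenchymal cells were low in both libraries. Prrx1, a mesenchymal homeobox factor, was at 0.0254 FPKM in p53+/+ against 2.02 FPKM in p53-/-. Twist1 was at 1.41 FPKM in p53+/+ against 3.4 FPKM in p53-/-, and Twist2 was listed at 0 in p53+/+ and at 1.29 FPKM in p53-/-. Pdgfra, the receptor by which fibroblasts are often sorted, was at 1.15 FPKM in p53+/+ against 0.515 FPKM in p53-/-, and Pdgfrb at 1.62 FPKM in p53+/+ against 2.83 FPKM in p53-/-. Lum, lumican, was listed at 0 in p53+/+ and at 0.176 FPKM in p53-/-, and Dcn, decorin, at 0 in p53+/+ and 1.03 FPKM in p53-/-. Vim, the intermediate filament of mesenchymal cells, was high in both, at 120.0 FPKM in p53+/+ against 191 FPKM in p53-/- (difference 0.66). Whether a minority of other cells or of differentiated cells in the p53-/- culture carried the matrix RNA was not tested, and in bulk RNA fewer cells of a type and less RNA per cell cannot be told apart.

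Contractile and cytoskeletal genes had 6 of 18 tested members higher by 1 or more (3.22% of all genes) and 0 lower. Acta2, smooth muscle actin, was at 0.0232 FPKM in p53+/+ against 12 FPKM in p53-/-, and Tagln, the actin-binding protein transgelin, at 3.68 FPKM in p53+/+ against 48.8 FPKM in p53-/-. With Adriamycin they were at 0.0788 and 8.61 FPKM (Acta2) and 2.89 and 46.2 FPKM (Tagln), again with both p53-/- libraries above both p53+/+ libraries. Smaller differences were seen for the calponin Cnn1 (0.967 FPKM in p53+/+ against 6.0 FPKM in p53-/-), tropomyosin Tpm1 (33.4 FPKM in p53+/+ against 98.4 FPKM in p53-/-), myosin light chain Myl9 (6.45 FPKM in p53+/+ against 19.5 FPKM in p53-/-) and the adhesion protein Zyx (6.88 FPKM in p53+/+ against 16.5 FPKM in p53-/-). Acta2, Tagln, Cnn1 and Tpm1 overlap another gene on mm9. Among 14 tested genes that TGF-beta or YAP signals are known to activate, Ccn2 was at 7.38 FPKM in p53+/+ against 60.6 FPKM in p53-/-, Ccn1 at 7.52 FPKM in p53+/+ against 31 FPKM in p53-/- and Inhba was listed at 0 in p53+/+ and at 1.43 FPKM in p53-/-, while Smad7, an inhibitor of TGF-beta signalling, was lower at 27.6 FPKM in p53+/+ against 10.9 FPKM in p53-/-.

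The promoter of 1 contractile gene is shown because it carries the CArG box, the element bound by serum response factor in muscle actin genes. The box was searched as a 10-base pattern on both strands in the 250 bases before each transcript start in RefSeq GRCm38.p6. It was found for 3 of 17 contractile genes that passed the filter on low values and had a promoter in the table (Cnn2, Myl9 and Vcl). Over all 27025 genes, which were not filtered by level, it was found for 1.62%. Of the 3 contractile genes, Myl9 was among the members past 1. In its sequence (chr2:156775214-156775463 on GRCm38.p6, plus strand) capitals mark the box:
Myl9: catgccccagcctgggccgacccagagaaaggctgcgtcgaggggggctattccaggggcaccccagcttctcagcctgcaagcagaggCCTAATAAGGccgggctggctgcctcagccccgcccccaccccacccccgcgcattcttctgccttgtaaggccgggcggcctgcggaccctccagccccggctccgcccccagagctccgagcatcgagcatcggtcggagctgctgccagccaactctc
A match is a description of the letters and no evidence of binding.

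Some epithelial genes were higher in the same library as the mesenchymal ones. Of 31 tested, 6 were higher by 1 or more (3.22% of all genes) and 0 lower, 11 were below 0, and the median was 0.30. The keratins of simple epithelium Krt8 and Krt18 were at 8.9 FPKM in p53+/+ against 43 FPKM in p53-/- and at 11 FPKM in p53+/+ against 52.4 FPKM in p53-/-. With Adriamycin Krt8 was at 8.62 and 45.2 FPKM and Krt18 at 9.58 and 61 FPKM. Krt19 was at 8.21 FPKM in p53+/+ against 36 FPKM in p53-/-, Krt7 at 0.669 FPKM in p53+/+ against 4.4 FPKM in p53-/-, and Cldn7, a claudin of tight junctions, at 9.35 FPKM in p53+/+ against 35 FPKM in p53-/-. Cdh1, E-cadherin, which holds stem cell colonies together, was at 52.2 FPKM in p53+/+ against 119 FPKM in p53-/- (ratio 2.26). It lies on chromosome 8, whose genes had a median difference of 0.34.

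Known targets of p53 were lower in the untreated p53-/- library, by amounts that differed much from gene to gene. Of 92 genes on 5 lists, 91 matched a record and 89 were tested. Of these 22 were lower by 1 or more and 0 higher, beside 2.44% lower over all genes, 75 were below 0 (52.0% of all genes), and the median was -0.47. In the Adriamycin inputs the median of the same genes was -1.80. Of the 89, 8 passed the filter through the p53+/+ libraries and 1 through the p53-/- libraries. The summed level of the lists was 0.391% of the library in untreated p53+/+ and 0.279% in untreated p53-/-, against 0.924% and 0.298% with the drug.

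Promoters of 3 of these genes are printed to show the decamer that is the unit of the p53 element. The decamer reads the same pattern on both strands and was searched in the 250 bases before each start. It was present for 15 of 74 target genes that passed the filter on low values and had a promoter in the table (20.3%). Over all 27025 genes, which were not filtered by level, it was present for 2216 (8.20%). With the same filter the share was 4 of 17 (23.5%) for contractile genes, a list with 0 members lower by 1 or more. It was 2 of 43 (4.65%) for interstitial matrix genes, filtered likewise. A full element, with 2 decamers up to 13 bases apart, was found for 1 target, Cdkn1a, and for 18 genes in all. Known elements of many targets lie further upstream or in the first intron, outside this window. Sequences are from RefSeq GRCm38.p6, at chr17:29090729-29090978 (plus strand), chr11:40755287-40755536 (minus strand) and chr10:117710759-117711008 (minus strand), with decamers in capitals:
Cdkn1a: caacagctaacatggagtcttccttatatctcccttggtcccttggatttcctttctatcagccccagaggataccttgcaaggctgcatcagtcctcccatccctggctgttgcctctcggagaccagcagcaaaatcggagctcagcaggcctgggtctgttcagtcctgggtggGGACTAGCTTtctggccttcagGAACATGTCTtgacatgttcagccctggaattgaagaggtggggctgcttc
Ccng1: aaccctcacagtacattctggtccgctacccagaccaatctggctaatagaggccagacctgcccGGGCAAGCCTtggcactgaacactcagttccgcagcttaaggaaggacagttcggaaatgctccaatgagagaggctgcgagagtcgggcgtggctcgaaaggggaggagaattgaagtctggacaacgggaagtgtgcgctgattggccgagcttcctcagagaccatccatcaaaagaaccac
Mdm2: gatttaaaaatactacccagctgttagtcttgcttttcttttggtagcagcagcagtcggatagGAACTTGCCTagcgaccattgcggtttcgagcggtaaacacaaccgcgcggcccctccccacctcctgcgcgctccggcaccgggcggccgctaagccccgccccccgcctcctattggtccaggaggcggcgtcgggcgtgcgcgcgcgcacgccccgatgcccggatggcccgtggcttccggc
The gene with 2 decamers in this window, Cdkn1a, was not the gene with the largest untreated difference of the 3. Ccng1 and Mdm2 had 1 decamer each there and no full element. As with the CArG box, a match describes the letters and is no evidence of binding.

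The genes that act back on p53 had 2 of 9 members lower by 1 or more (2.44% of all genes). Ccng1, cyclin G1, which recruits a phosphatase to Mdm2, was at 40.7 FPKM in p53+/+ against 9.6 FPKM in p53-/-, with bounds of 39.5 to 41.9 and 9.05 to 10.2 FPKM (ratio 0.234), and at 169 and 13.5 FPKM with Adriamycin. Zmat3, an RNA-binding zinc finger protein, was at 13.2 FPKM in p53+/+ against 3.8 FPKM in p53-/-, and at 34.8 and 3.9 FPKM with Adriamycin. Zmat3 overlaps another gene. For both, the untreated p53+/+ library lay between the p53-/- libraries and the treated p53+/+ library. Mdm2 was at 25.4 FPKM in p53+/+ against 14.8 FPKM in p53-/- (difference -0.74), and the phosphatase gene Ppm1d at 9.1 FPKM in p53+/+ against 6.57 FPKM in p53-/- (difference -0.41).

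Genes of apoptosis had 7 of 21 members lower by 1 or more (2.44% of all genes). Phlda3, which restrains the kinase AKT, was at 34 FPKM in p53+/+ against 6.29 FPKM in p53-/-, with bounds of 32.3 to 35.7 and 5.58 to 7.0 FPKM, and at 163 and 8.91 FPKM with Adriamycin. Trp53inp1, which promotes p53 phosphorylation and autophagy, was at 15.2 FPKM in p53+/+ against 2.36 FPKM in p53-/-, and at 79.2 and 3.09 FPKM with Adriamycin. Bbc3, the BH3-only killer protein PUMA, was at 11.3 FPKM in p53+/+ against 1.82 FPKM in p53-/- (ratio 0.16), and at 44.1 and 2.0 FPKM with Adriamycin. These 3 kept a level in untreated p53+/+ several-fold over that in either p53-/- library.

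Eda2r, a receptor of the TNF receptor family, was at 5.42 FPKM in p53+/+ against 0.38 FPKM in p53-/-, Dapk1, a death-associated kinase, at 4.69 FPKM in p53+/+ against 1.33 FPKM in p53-/-, and Dram1, a lysosomal protein, at 2.15 FPKM in p53+/+ against 0.353 FPKM in p53-/-. Bax, the pore-forming protein of mitochondria, was abundant and lower by about the threshold, at 335 FPKM in p53+/+ against 157 FPKM in p53-/-, a difference of -1.10, with bounds of 328 to 343 and 152 to 161 FPKM. Pmaip1, the BH3-only protein NOXA, was at 12.5 FPKM in p53+/+ against 6.35 FPKM in p53-/- (difference -0.86). Fas, the death receptor, was at 0.417 FPKM in p53+/+ against 0.53 FPKM in p53-/- untreated but at 23.8 and 1.15 FPKM with Adriamycin. Perp, a membrane protein of p53-dependent death, was at 9.12 FPKM in p53+/+ against 7.8 FPKM in p53-/- untreated and at 89.3 and 7.19 FPKM with Adriamycin. For Fas and Perp the genotypes lay apart with the drug and close together without it.

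Arrest genes had 4 of 16 members lower by 1 or more (2.44% of all genes). Psrc1, a microtubule protein of the spindle, had the largest difference of any target here, at 78.9 FPKM in p53+/+ against 10.8 FPKM in p53-/-, and at 226 and 6.5 FPKM with Adriamycin. Btg2, an antiproliferative deadenylase cofactor, was at 11.4 FPKM in p53+/+ against 3.03 FPKM in p53-/-, Plk2, a polo-like kinase, at 7.43 FPKM in p53+/+ against 2.51 FPKM in p53-/-, and Gtse1, a microtubule protein of G2, at 58.9 FPKM in p53+/+ against 28 FPKM in p53-/-. Cdkn1a, the inhibitor of cyclin-dependent kinases known as p21, hardly differed without the drug, at 24.1 FPKM in p53+/+ against 21.5 FPKM in p53-/- (difference -0.17), and was at 104 and 29.4 FPKM with Adriamycin. The untreated libraries were thus close for this target and the treated ones far apart. Sfn, the 14-3-3 protein sigma, had a difference of 0.60, above 0.

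Among repair genes Mgmt, which removes alkyl groups from guanine, was at 30.6 FPKM in p53+/+ against 11 FPKM in p53-/- and was the member of 12 past 1. The median of the repair list was -0.27, near those of DNA replication genes (-0.23) and of genes of G2 and mitosis (-0.26). Among genes of metabolism and other roles, 8 of 31 were lower by 1 or more (2.44% of all genes). Ptp4a3, a phosphatase of the PRL family, was at 19 FPKM in p53+/+ against 5.02 FPKM in p53-/-, the thiamine transporter Slc19a2 at 17.8 FPKM in p53+/+ against 4.88 FPKM in p53-/-, and Dcxr, a xylulose reductase, at 15 FPKM in p53+/+ against 4.36 FPKM in p53-/-. The others past 1 were Def6, Cpt1c, Sesn2, Abhd4 and Ak1, with differences from -1.41 to -1.0. Ddit4, an inhibitor of mTORC1, was at 48.1 FPKM in p53+/+ against 74.9 FPKM in p53-/- (difference 0.61), the member of that list furthest above 0.

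**Figure D3:**
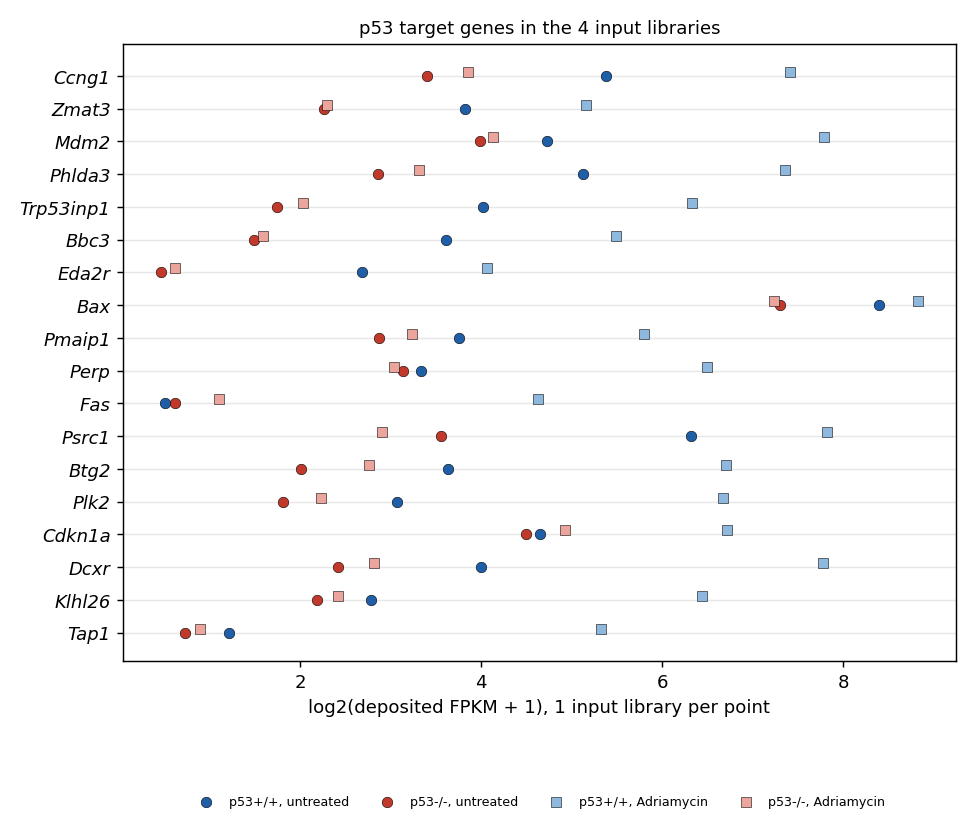
Each row is a p53 target and each point 1 input library, on a horizontal axis of log2(deposited FPKM + 1). The p53+/+ library with Adriamycin (pale blue square) lies furthest right in each row, and the distance between the untreated p53-/- (red) and p53+/+ (blue) circles ranges from wide in Psrc1 (10.8 and 78.9 FPKM) to near 0 in Cdkn1a (21.5 and 24.1 FPKM).

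Targets that responded to the drug differed among themselves in the untreated comparison. The drug response was taken from the RIP libraries, which the untreated input comparison does not use, although RIP and input may come from the same cultures. In p53+/+ RIP 48 of the 89 targets were higher by 1 or more with Adriamycin, where 9.43% of all genes were. Of these 48, 18 were lower by 1 or more in the untreated input comparison, beside 2.44% of all genes. A further 14 of the 48 lay within 0.5 of equality, a share that was not counted over all genes. The median of the 48 was -0.75, beside -0.02 over all genes. Of the 41 others, 4 were lower by 1 or more and the median was -0.25.

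Genes on none of the p53 lists were divided by the same response, with the further condition that p53-/- RIP did not pass 1 the same way. Of 1063 such genes higher by 1 or more with Adriamycin in p53+/+ RIP, 50 (4.7%) were lower by 1 or more in untreated p53-/- input and 40 (3.76%) higher. Of 622 genes that were lower by 1 or more with the drug in p53+/+ RIP, 34 (5.47%) were lower in untreated p53-/- input and 23 (3.7%) higher. The shares were thus alike for both directions of the drug response, beside 2.44% lower and 3.22% higher over all genes. Among the 50 the largest differences were those of 1700007K13Rik, at 14.6 FPKM in p53+/+ against 1.54 FPKM in p53-/- and at 305 and 2.96 FPKM with Adriamycin, of Cox6b2, a testis form of a cytochrome oxidase subunit, at 117 FPKM in p53+/+ against 23 FPKM in p53-/- and at 351 and 27.6 FPKM with Adriamycin, and of Eng, endoglin, a co-receptor for TGF-beta, at 12.3 FPKM in p53+/+ against 1.47 FPKM in p53-/- and at 72 and 2.34 FPKM with Adriamycin. In these 3 genes treated p53+/+ was the highest of the 4 inputs and both p53-/- libraries were the lowest. Choosing the 3 by their drug response in RIP and their untreated difference favours that order. Eng overlaps another gene on mm9.

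Genes of core and naive pluripotency lay mostly below 0, and 4 of them were lower by 1 or more. Of 45 tested, 35 were below 0 (52.0% of all genes), 4 were lower by 1 or more (2.44% of all genes) and 2 higher (3.22%), with a median of -0.42. Similar parts of other lists were below 0, namely 28 of 36 DNA replication genes and 23 of 28 genes of G2 and mitosis. Pou5f1 was at 1131 FPKM in p53+/+ against 755 FPKM in p53-/- (ratio 0.662), Sox2 at 170.0 FPKM in p53+/+ against 124 FPKM in p53-/- (ratio 0.725) and Nanog at 164 FPKM in p53+/+ against 151 FPKM in p53-/- (ratio 0.913). None of the 3 was past 1, and Sox2 overlaps another gene. Zfp42, the naive marker Rex1, was at 378 FPKM in p53+/+ against 396 FPKM in p53-/-, and Klf4, a factor of naive cells, at 62.3 FPKM in p53+/+ against 32.4 FPKM in p53-/-. In the Adriamycin inputs the median of the list was on the other side of 0, at 0.22, and in the RIP pairs it was -0.35 untreated and 0.15 with the drug.

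Lower genes of the list included transcription factors. Gbx2, a homeobox factor downstream of leukemia inhibitory factor, was at 19.6 FPKM in p53+/+ against 4.61 FPKM in p53-/-, and at 4.76 and 3.42 FPKM with Adriamycin. Tfcp2l1, a factor that holds the naive state, was at 24.3 FPKM in p53+/+ against 6.36 FPKM in p53-/-, and at 10.4 and 5.65 FPKM with Adriamycin. Tbx3, another factor of the naive network, was at 33 FPKM in p53+/+ against 12.7 FPKM in p53-/-, and at 23.5 and 8.8 FPKM with Adriamycin. The untreated p53+/+ library was the highest of the 4 inputs for Gbx2, Tfcp2l1 and Tbx3. For Gbx2 the p53+/+ library with Adriamycin was near the p53-/- libraries, so its genotype difference was -0.32 there.

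The 2 higher genes were Spp1, given above, and Dppa3. Dppa3, also called Stella, protects maternal methylation in the zygote and varies from cell to cell in stem cell cultures. It was at 6.92 FPKM in p53+/+ against 172 FPKM in p53-/-, with bounds of 5.83 to 8.01 and 167 to 177 FPKM (ratio 24.6), and at 4.31 and 176 FPKM with Adriamycin. The genotypes were apart in every pair, with differences of 4.38, 4.99, 3.90 and 4.84 in untreated input, Adriamycin input, untreated RIP and Adriamycin RIP. Nanog, a neighbour of Dppa3 on chromosome 6, had -0.13 in the untreated inputs.

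Other germline and maternal genes were mixed, with 6 of 28 tested past 1 above (Dppa3 included) and 1 below. Over all genes the shares were 3.22% higher and 2.44% lower. Tex19.1, which silences transposons in germ and placental cells, was at 36.3 FPKM in p53+/+ against 115 FPKM in p53-/-, Tdrd12, a factor of piRNA biogenesis, at 14.4 FPKM in p53+/+ against 34.6 FPKM in p53-/-, and the X-linked homeobox genes Rhox6 and Rhox9 at 2.29 FPKM in p53+/+ against 9.77 FPKM in p53-/- and at 2.67 FPKM in p53+/+ against 8.75 FPKM in p53-/-. Tex101, a germ cell surface protein, was at 0.785 FPKM in p53+/+ against 6.07 FPKM in p53-/-. Hormad1, a protein of the meiotic chromosome axis, was lower at 16.4 FPKM in p53+/+ against 7.09 FPKM in p53-/-, and at 59.7 and 7.51 FPKM with Adriamycin.

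Signals of the Nodal and BMP branches were uneven, with 4 of 17 tested higher by 1 or more (3.22% of all genes) and Smad7 lower (2.44%). The same shares over all genes stand beside the primed and trophoblast counts below. Lefty2, a secreted inhibitor of Nodal that Nodal itself induces, was at 23.8 FPKM in p53+/+ against 138 FPKM in p53-/- (ratio 5.77), and Lefty1 at 35.5 FPKM in p53+/+ against 81.5 FPKM in p53-/-. Grem1, a BMP antagonist, was at 0.019 FPKM in p53+/+ against 1.62 FPKM in p53-/-, while Nodal was at 39.1 FPKM in p53+/+ against 19.5 FPKM in p53-/- (difference -0.97). The ligand and its inhibitors thus lay on opposite sides. Primed epiblast genes gave 2 of 17 past 1, Zic2 (4.04 FPKM in p53+/+ against 15.6 FPKM in p53-/-) and the kinase gene Pim2 (9.55 FPKM in p53+/+ against 27.6 FPKM in p53-/-, overlapping another gene), with a median of -0.02. Among 12 tested trophoblast genes 4 were past 1, namely Krt7, Krt8 and Krt18 from above and Esx1, a placental homeobox gene on the X chromosome, at 2.03 FPKM in p53+/+ against 17.8 FPKM in p53-/-.

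Many primitive endoderm genes were lower in p53-/-. Of 38 on the list 25 were tested, 11 were lower by 1 or more and 3 higher, beside 2.44% lower and 3.22% higher over all genes, with a median of -0.95. Of the 25, 8 passed the filter through the p53+/+ libraries and 2 through the p53-/- libraries. Gata4 and Gata6, the factors that set the endoderm programme, were at 6.75 FPKM in p53+/+ against 0.642 FPKM in p53-/- and at 3.89 FPKM in p53+/+ against 0.325 FPKM in p53-/-. With Adriamycin Gata4 was at 5.29 and 0.576 FPKM and Gata6 at 3.49 and 0.384 FPKM. Both p53+/+ inputs were above both p53-/- inputs for each factor. Genes of the endocytic apparatus of endoderm were lower as well: Dab2, an endocytic adaptor, was at 13.7 FPKM in p53+/+ against 1.41 FPKM in p53-/-, and its cargo receptor Cubn, cubilin, at 4.04 FPKM in p53+/+ against 0.123 FPKM in p53-/-.

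Srgn, serglycin, the core of secretory granule proteoglycans, had the largest lower difference of all named genes. It was at 46.9 FPKM in p53+/+ against 2.59 FPKM in p53-/-, with bounds of 44.2 to 49.5 and 1.99 to 3.18 FPKM (ratio 0.0547), and at 49.7 and 3.2 FPKM with Adriamycin. Amn, amnionless, which carries cubilin to the surface, was at 8.64 FPKM in p53+/+ against 2.52 FPKM in p53-/-, and the factor Sox7 was at 2.14 FPKM in p53+/+ against 0.276 FPKM in p53-/-. Lama1 and Col4a1 of the basement membrane also belong to this list and were lower, as was Pth1r, while Lrp2, the endocytic receptor megalin, at 3.27 FPKM in p53+/+ against 0.982 FPKM in p53-/-, lay just short of the threshold. The 3 higher members were Thbd (0.173 FPKM in p53+/+ against 4.48 FPKM in p53-/-), Plat (0.331 FPKM in p53+/+ against 4.84 FPKM in p53-/-) and Rbp4 (4.63 FPKM in p53+/+ against 16 FPKM in p53-/-). Plat, tissue plasminogen activator, is also on the list of matrix proteases, and Pth1r and Rbp4 overlap other genes on mm9.

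Some genes of the 2-cell-like state were lower, led by the Zscan4 cluster, which encodes zinc finger proteins that lengthen telomeres and mark a small fraction of stem cells at any time. Of 17 tested, 6 were lower by 1 or more (2.44% of all genes) and 16 were below 0 (52.0% of all genes), with a median of -0.71. Zscan4c was at 147 FPKM in p53+/+ against 37 FPKM in p53-/- and at 212 and 42.4 FPKM with Adriamycin, and Zscan4f was at 216 FPKM in p53+/+ against 55.3 FPKM in p53-/- and at 330.2 and 65.8 FPKM with Adriamycin. Zscan4d was at 86.9 FPKM in p53+/+ against 22.2 FPKM in p53-/-, Zscan4b at 48.4 FPKM in p53+/+ against 10.5 FPKM in p53-/- and Zscan4a at 22.1 FPKM in p53+/+ against 3.52 FPKM in p53-/-. The 5 differences were from -2.28 to -1.92, and treated p53+/+ was the highest input for each. Gm4340, a transcript of the same state that overlaps another gene, was at 170.2 FPKM in p53+/+ against 56.7 FPKM in p53-/-. Others of the state were nearer to equality, such as Zfp352 (2.29 FPKM in p53+/+ against 1.53 FPKM in p53-/-) and Eif1a (68 FPKM in p53+/+ against 69 FPKM in p53-/-).

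Zscan4 genes are near-identical copies, and estimates can be shifted among them, so the 5 values are not independent of one another. One pair of promoters in the cluster shows such a copy. The 250 bases before the starts of Zscan4f (chr7:11397665-11397914, plus strand) and Zscan4b (chr7:10905051-10905300, minus strand), from RefSeq GRCm38.p6, were identical at 237 positions when laid side by side without gaps (94.8%):
Zscan4f: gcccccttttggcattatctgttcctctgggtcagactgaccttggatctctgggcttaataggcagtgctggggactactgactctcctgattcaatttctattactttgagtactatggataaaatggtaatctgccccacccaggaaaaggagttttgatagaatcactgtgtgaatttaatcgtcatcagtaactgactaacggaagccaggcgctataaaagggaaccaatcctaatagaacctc
Zscan4b: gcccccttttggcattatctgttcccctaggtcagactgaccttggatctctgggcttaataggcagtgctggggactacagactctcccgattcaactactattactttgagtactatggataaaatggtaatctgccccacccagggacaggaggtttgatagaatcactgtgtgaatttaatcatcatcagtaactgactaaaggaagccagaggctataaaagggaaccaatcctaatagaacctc
Between these copies 13 positions differed, and the untreated levels in p53+/+ were 216 FPKM for Zscan4f and 48.4 FPKM for Zscan4b. The other 5 pairs among Zscan4b, Zscan4c, Zscan4d and Zscan4f were identical at 24 to 24.8% of positions in the same comparison without gaps. The windows of Zscan4c and Zscan4d hold much of the same sequence at shifted positions. A comparison without gaps therefore does not measure how alike those 5 pairs are.

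**Figure D4:**
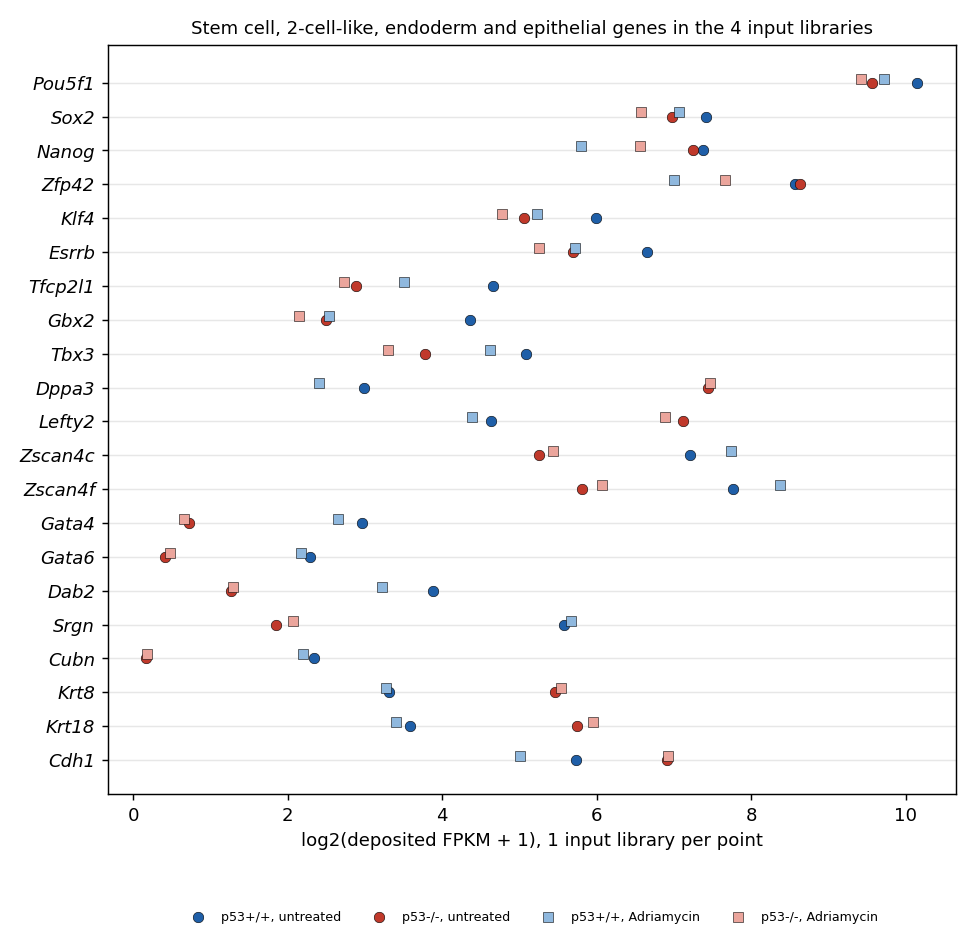
Each row is a gene of stem cell state, endoderm or epithelium and each point 1 input library, on a horizontal axis of log2(deposited FPKM + 1). Pou5f1, Sox2 and Nanog are high in all 4 libraries, Dppa3 lies apart by genotype with p53-/- at 172 FPKM against 6.92 FPKM untreated, and Gata4, Gata6, Dab2, Srgn, Cubn and the Zscan4 genes lie apart the other way.

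The remaining lower genes of the rule had varied roles. Spink1, an inhibitor of trypsin, was at 40.3 FPKM in p53+/+ against 3.86 FPKM in p53-/-, and at 32.5 and 3.13 FPKM with Adriamycin. Laptm5, a lysosomal protein best known from blood cells, was at 33 FPKM in p53+/+ against 4.69 FPKM in p53-/-, and Lgals2, a galectin that overlaps another gene on mm9, at 7.89 FPKM in p53+/+ against 0.061 FPKM in p53-/-. Other blood cell markers were near 0: of 18 matched on that list, 14 were under 1 FPKM in p53-/- and 8 were listed at 0 in p53+/+. Prmt8, an arginine methyltransferase of the plasma membrane, was at 6.94 FPKM in p53+/+ against 0.386 FPKM in p53-/-, Adam23, an adhesion protein of the ADAM family, at 14.1 FPKM in p53+/+ against 2.0 FPKM in p53-/-, and Inhbb, the beta B subunit of activin, at 18.3 FPKM in p53+/+ against 2.95 FPKM in p53-/-. Mymx, a small protein that fuses muscle precursors, was at 142 FPKM in p53+/+ against 28.8 FPKM in p53-/-.

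Part of the comparison followed whole chromosomes. Genes of chromosome 8 had a median difference of 0.34 (650 genes, 82.2% above 0) and those of chromosome 11 a median of 0.28 (1030 genes, 76.1% above 0), beside 47.8% above 0 among all genes. The other 17 autosomes had medians from -0.21 to 0.01. Among genes at 10 FPKM or more in both untreated inputs, the median ratio was 1.36 on chromosome 8 (299 genes) and 1.26 on chromosome 11 (470 genes), and from 0.822 to 0.989 on the others. The Adriamycin inputs gave medians of 0.30 for chromosome 8 and 0.32 for chromosome 11, and the untreated RIP pair 0.32 and 0.24.

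In the untreated inputs the shift ran along the full length of both. All 7 windows of 20 Mb on chromosome 8 had a median above 0, from 0.22 to 0.50, as did all 7 on chromosome 11, from 0.20 to 0.35. Chromosome 1, at the other end with a median of -0.21, had 0 of 9 windows above 0. In the Adriamycin inputs the first window of chromosome 8 had a median of -0.03, and the remaining windows of chromosomes 8 and 11 were above 0. Chromosomes 8 and 11 held 14.2% of the genes tested, 93 (24.4%) of the 381 higher genes and 17 (5.88%) of the 289 lower ones. Col1a1, Cdh1, Serpinf1 and Sparc lie on them, as do Col4a1 and Col4a2, which were lower, and Trp53, whose 95 tested neighbours within 2 Mb had a median of 0.30. Copy number was not measured in these data, and its part in any of these differences was not tested.

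**Figure D5:**
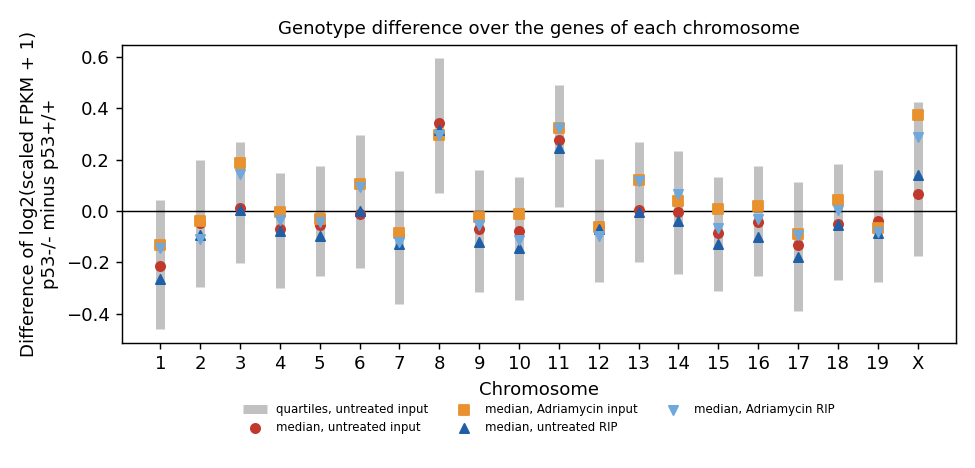
Points are the median difference of log2(scaled FPKM + 1), p53-/- minus p53+/+, over the tested genes of each chromosome in the 4 genotype pairs, and grey bars span the quartiles in untreated input. Chromosomes 8 and 11 stand above the other autosomes in all 4 pairs (0.34 and 0.28 in untreated input), and the X chromosome goes from 0.07 untreated to 0.37 with Adriamycin in the inputs. The Y chromosome, with 3 tested genes, is not drawn.

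The X chromosome had the highest share of genes past 1 upward, 41 of 415 (9.88%), at a median of 0.07. Of these 41, 10 were neighbours of Bgn. The Xlr3, Xlr4 and Xlr5 genes, copies of a family first described in lymphocytes and partly imprinted in brain, were higher in 9 of 9 cases, by 1.82 to 3.38, and all 9 were past 1 in all 4 pairs (1.45% of all genes). Xlr5b was at 0.495 FPKM in p53+/+ against 17.7 FPKM in p53-/- and at 0.886 and 19.3 FPKM with Adriamycin, Xlr3a at 8.39 FPKM in p53+/+ against 35.9 FPKM in p53-/-, and Xlr3c at 1.56 FPKM in p53+/+ against 21.5 FPKM in p53-/-. Xlr5b overlaps another gene, and the family's members are close copies whose estimates can be shifted among them. The cluster lies beside Bgn (chrX:70728974-70741275 on mm9): of 28 tested neighbours within 0.5 Mb, 10 were higher by 1 or more. Dusp9, a phosphatase of ERK kinases, and Slc6a8, the creatine transporter, were lower in the same stretch, at 53.1 FPKM in p53+/+ against 24.7 FPKM in p53-/- and at 30.3 FPKM in p53+/+ against 14.4 FPKM in p53-/-.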

How the data were processed

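RNA of 8 libraries, 1 per combination of genotype, treatment and library type, was measured by TruSeq sequencing, per the labels' protocols. The submitters' processing notes name build mm9 and the tools TopHat, TopHat2 (2.0.8), Cufflinks and CASAVA (1.8.2), and their settings are not stated there. The authors deposited FPKM for each of 30769 RefSeq transcript records, with lower and upper bounds, length, coverage and a status, per the file headers. The coverage signal deposited by the authors was multiplied by transcript length to give the depth in bases.

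Records were matched by accession to gene symbols of GRCm38.p6 (30227, 98.2%) and FPKM was summed into 23560 genes. Those averaging at least 1 FPKM over the 8 libraries were kept (11832). Libraries were scaled by their median ratio to the geometric mean library, 1 FPKM was added and log2 taken, with Python 3.11.15, numpy 2.4.6 and pandas 2.3.3 and plots from matplotlib 3.10.9. A gene was called at a difference of 1 or more. With 1 library a side there is no test and no p-value. The calculation was tested on simulated data. Fragment numbers were read from the bounds, taken as 2 standard errors of a count, and are approximate, and they cover counting error only.

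The members, the 33 gene lists and the naming rule were chosen with earlier results of these data known. Of 765 list entries 10 matched no record. A few members are counted in their lists but not reported here by name. The rule named the 15 largest differences a side among genes of transcripts of 200 bases or more, at 5 scaled FPKM or more in the higher untreated input and past 1 the same way in both input pairs, up to 4 members of each list a side, and Trp53, Mdm2, Cdkn1a, Hnrnpl, Pou5f1, Nanog, Sox2, Cdh1, Vim and Xist. Other genes named, such as further list members and neighbours of Bgn, were chosen after their values were seen. Estimates with a failed status were kept as given, which among genes compared concerned Nolc1 in p53-/- and Zfp568 in p53+/+. Alternatives were other pseudocounts, filters, scalings and quantile normalization, and 2 added after seeing the data. The promoter table and gene symbols come from RefSeq GRCm38.p6, and no coordinates were converted between builds.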

Additional observations from a re-analysis of the deposited data

Results flagged for a closer look

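The median difference of the 45 core and naive pluripotency genes had opposite signs in the pairs of inputs, -0.42 untreated and 0.22 with Adriamycin. Serpine2, the inhibitor of serine proteases, was higher in p53-/- by 1.36 untreated and lower by 1.94 (a difference of -1.94) with Adriamycin, and its level in p53+/+ was 8.28 FPKM without and 120.0 FPKM with the drug. In both cases the difference between the pairs was not tested, because each pair holds 1 library a side.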

How the results depend on the processing

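No paired analysis was possible because each group holds 1 library, and no replicate could be left out for the same reason. Of 413 values of 39 named genes under 11 alternatives, 413 kept their sign and 390 stayed within 1.5 times. These counts say little about robustness. An alternative that only changes which genes enter leaves each gene's value as it was, and another pseudocount cannot reverse a sign. Most named genes were also chosen for large differences. Of 385 list medians, which can change with the genes that enter, 375 kept their sign. With a pseudocount of 0.1 FPKM 704 genes were higher and 615 lower, and 1 interstitial matrix gene was lower by 1 or more. With a pseudocount of 5 FPKM, which shrinks low genes, 123 were higher and 73 lower; medians were -0.39 for 2-cell-like, -0.38 for primitive endoderm (0 higher, 3 lower), 0.57 for interstitial matrix (19 higher) and -0.29 for p53 targets (9 lower). Without a filter the medians were 0.054 for primed (reversed), 0.024 for immune (reversed), 0.038 for Y-linked genes (reversed), -0.60 for primitive endoderm and 0.91 for interstitial matrix. With a mean of 5 FPKM or more 200 genes were higher, 17 of them interstitial matrix, primitive endoderm had 1 higher and 3 lower at a median of -0.55, the 2-cell-like median was -1.92, and other collagens (-0.044), germline (-0.053) and Y-linked genes (0.19) reversed; fewer genes enter each list there. Without chromosomes 8 and 11, an alternative added after seeing the data, the medians of primed (0.033), mesoderm and endothelial (-0.15) and housekeeping genes (-0.014) reversed, and without genes overlapping another gene, also added, that of interferon and MHC genes did (-0.14). The cause of these changes was not tested. The size of a difference from near 0 is set by the pseudocount, as for Mgp, with about 2 fragments in untreated p53+/+.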

Other observations

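Imprinted genes had 4 of 27 tested members higher by 1 or more in untreated p53-/- input (3.22% of all genes) and 0 lower (2.44%), with a median of 0.35. The same shares over all genes stand beside the other list counts of this section. In the Adriamycin inputs 8 imprinted genes were higher and 1 lower (7.77% and 10.8% of all genes). Untreated RIP gave 5 and 1 (3.99% and 5.38%), and Adriamycin RIP 10 and 2 (8.85% and 14.3%). Igf2, the fetal growth factor expressed from the paternal copy, was at 1.65 FPKM in p53+/+ against 27.8 FPKM in p53-/-, and at 1.59 and 31.2 FPKM with Adriamycin, with differences of 3.28 and 3.47. Nnat, a paternally expressed membrane protein of neural tissue, was at 9.47 FPKM in p53+/+ against 25.9 FPKM in p53-/-, Impact, a regulator of translation under stress, at 14.9 FPKM in p53+/+ against 33.7 FPKM in p53-/-, and Ndn, necdin, at 5.32 FPKM in p53+/+ against 12.5 FPKM in p53-/-. Igf2 and Nnat overlap other genes. Genes of antigen presentation and interferon response had 4 of 15 past 1: B2m, the light chain of class I MHC, at 19 FPKM in p53+/+ against 99 FPKM in p53-/-, the class I genes H2-K1 (12.8 FPKM in p53+/+ against 40.1 FPKM in p53-/-) and H2-D1 (10.2 FPKM in p53+/+ against 22.5 FPKM in p53-/-), and the immunoproteasome subunit Psmb8, listed at 0 in p53+/+ and at 3.7 FPKM in p53-/-. B2m and H2-D1 overlap other genes on mm9, and reads of class I genes can be split among their close copies.

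Among 23 genes of hypoxia and glycolysis 3 were past 1, the peptide hormone gene Adm (1.79 FPKM in p53+/+ against 15.7 FPKM in p53-/-), Ankrd37 (14.4 FPKM in p53+/+ against 69.7 FPKM in p53-/-) and the lactate transporter gene Slc16a3 (68.8 FPKM in p53+/+ against 152 FPKM in p53-/-). Neural genes gave 2 of 10, Nes, nestin, at 0.53 FPKM in p53+/+ against 5.26 FPKM in p53-/- and Crabp2, a retinoic acid carrier, at 4.06 FPKM in p53+/+ against 20.3 FPKM in p53-/-. Genes of G2 and mitosis gave 0 of 28 past 1 in either direction, with 23 of 28 below 0 and a median of -0.26, and DNA replication genes 1 of 36 lower, Pola1, a subunit of DNA polymerase alpha on the X chromosome, at 9.5 FPKM in p53+/+ against 3.69 FPKM in p53-/-. Medians near 0 were those of mesoderm and endothelial genes (0.06, 8 tested), housekeeping genes (0.01, 13 tested) and Y-linked genes (-0.03, 3 tested), and the medians were -0.27 for 3 blood cell genes, 0.18 for germline, 0.23 for interferon and MHC genes, and 1.19 for the other collagens.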
